A study of Mus musculus with 6 samples.

Results

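The homeobox and PAX genes that lie outside the HOX clusters were followed in mouse embryonic fibroblasts (MEFs) with and without Rnf40. The genes were chosen by a rule on names, set with earlier results of these data known. It takes every row of the deposited expression table whose symbol belongs to the Dlx, Msx, SINE-class, Pitx, Prrx, Meox, Lhx, Pax, Irx, Alx, Emx, En, Barx, Meis, Pbx, Tshz, Zfhx or Nkx families. The rule took 81 of the 29955 genes in the table, including the antisense transcript Nkx2-2as. Of these, 74 had a read in at least 1 library and 50 passed the filter on low values and were tested.

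The table holds mRNA-seq of 3 Rnf40+/+ and 3 Rnf40-/- MEF samples at passage 3. RNF40 is a subunit of the ubiquitin ligase that places a single ubiquitin on histone H2B. Per the study's methods, the cells came from mid-gestation embryos homozygous for loxP sites around exons 3 and 4 of Rnf40 and carried a Cre recombinase fused to the oestrogen receptor (CreERT2) at the ubiquitously active Rosa26 locus. The labelled protocol for the deletion was 250 nM 4-hydroxytamoxifen (4-OHT) for 5 days and a further 3 days without it. The sources do not say whether the Rnf40+/+ cells received 4-OHT, so the deletion and the treatment cannot be told apart here. They also do not say whether the 3 samples of a genotype came from separate embryos or cultures, so the p-values measure only the spread between these samples. Values with ± are means and SD over n = 3 samples of a genotype.

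Homeobox genes encode transcription factors that bind DNA through a homeodomain, and PAX factors bind through a paired domain, which in some of them is joined to a homeodomain. In the embryo these genes assign position and lineage, and a fibroblast keeps a record of where it came from in the set of homeobox genes it expresses. Many of them are silent in any given cell type under Polycomb, the complex whose enzyme EZH2 methylates histone H3 at lysine 27, and the active ones often carry broad domains of trimethylated lysine 4.

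Each library held 17053436 to 26344170 reads. The targeted gene, Rnf40, gave 1278, 1195 and 1096 normalized counts in Rnf40+/+ cells against 439, 519 and 487 in Rnf40-/- cells, a log2 difference of -1.30 (SE 0.09, adjusted p = 4.25e-07, limma with Benjamini-Hochberg adjustment). This gene-level count also takes reads from exons outside the deleted part. All 10 fibroblast markers looked for were detected in every library, and 8 of them were lower in Rnf40-/-, with a summed level of 356518 to 416525 normalized counts in Rnf40+/+ and 187003 to 201099 in Rnf40-/-. Among markers of other cell types, Myod1 was at 0 in every library. Of 5 endothelial markers tested 3 were higher in Rnf40-/- and 1 was lower. Of the 3, Pecam1 and Cdh5 had at most 4.78 and 5.1 normalized counts in Rnf40+/+. The filter on low values kept both through the Rnf40-/- libraries, so their tests are not independent of it. Of 5 macrophage markers 2 were higher (Ptprc and Cd14) and 1 lower (Tyrobp), with a summed macrophage level of 837 to 1413 normalized counts in Rnf40+/+ and 889 to 948 in Rnf40-/-. Rnf40+/+ replicate 1 stood apart from the other libraries in several tissue genes, with 937 normalized counts of the cardiac and skeletal muscle actin Actc1 against at most 10.2 elsewhere. The summed skeletal myogenic list was 1435 in this library and 197 to 220.0 in the other 5, so the results below are also given without it where it decides them.

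More of these genes were lower than higher in Rnf40-/- MEFs, led by Dlx5, Six5, Meis1, Meox1 and Prrx1 among the lower and by Pax8, Nkx2-9 and Meox2 among the higher. Of the 50 tested, 18 were lower in Rnf40-/- and 5 were higher, while 27 did not pass the test (limma, Benjamini-Hochberg adjusted p under 0.05 over all 16378 genes tested). This is 36% lower beside 24.1% of all genes tested, and 10% higher beside 23.3% of all genes tested. In 25 of the 50 the normalized counts of the genotypes did not overlap, beside 56.5% of all genes tested. The study's own criteria are a mean above 15, an unadjusted p under 0.05 and a log2 change beyond 1. Applied to the limma fit in place of the study's DESeq results, they gave 2 of the 50 lower (Dlx5 and Six5) and 3 higher (Pax8, Nkx2-9 and Meox2). By the same criteria 5.7% of all genes tested were lower and 4.25% were higher. Without Rnf40-/- replicate 2 or 3 the higher calls by adjusted p numbered 3, and without Rnf40+/+ replicate 1 or 3 or Rnf40-/- replicate 1 or 3 the study's criteria left 1 gene lower.

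The called genes differed in their level in Rnf40+/+ MEFs. The 18 lower genes had Rnf40+/+ means from 44.4 to 9166 normalized counts, not corrected for length, with a median of 423, and the 5 higher genes had means from 8.49 to 94.9. A mean under 100 was found in 5 of the 5 higher genes, 2 of the 18 lower ones and 14 of the 27 not called. Over all genes tested, the same limit was met by 26.2% of those called higher, 12.1% of those called lower and 38.5% of those not called. The median log2 change over the 50 tested was -0.11, beside -0.0035 over all genes tested. With no filter on low values the median over the 74 genes with a read was 0.13, beside 0.033 over all genes, so its sign depended on whether the nearly silent members were counted.

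**Figure D1:**
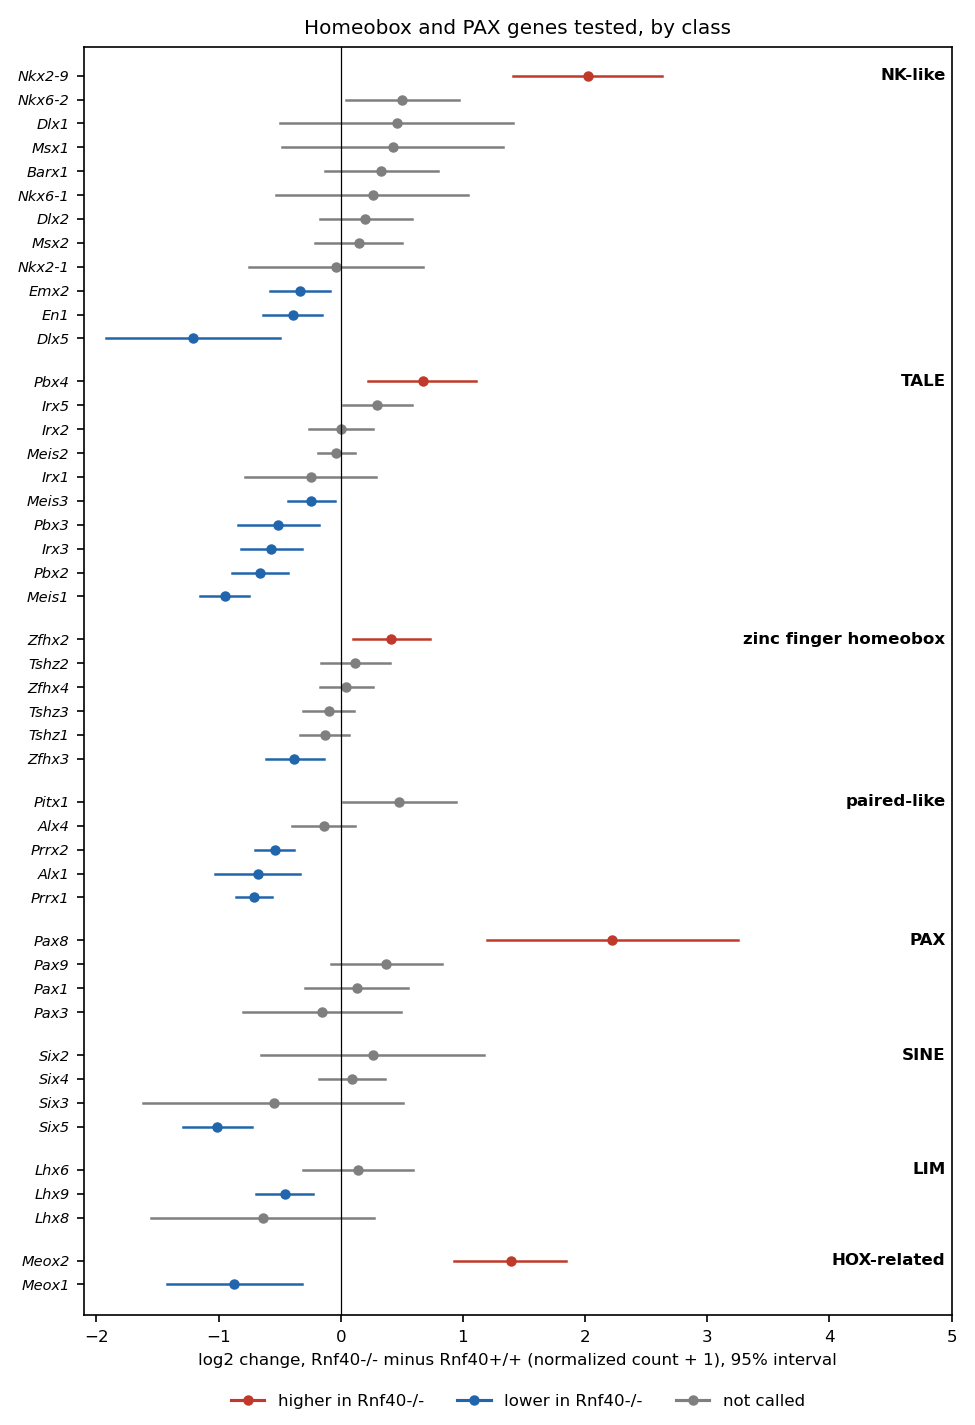
Log2 change between Rnf40-/- and Rnf40+/+ (x axis, on the normalized count + 1 scale) for 46 of the 50 tested genes, grouped by homeodomain class, with points for the estimate and lines for its 95% interval. The genes called lower reach down to -1.21 for Dlx5 and the 5 called higher reach up to 2.22 for Pax8.

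The paired-like and TALE classes held most of the lower genes. TALE factors carry a homeodomain with an additional 3 amino acids, and its PBX and MEIS members bind DNA together with HOX proteins. Of 11 TALE genes tested, 6 were lower and 1 was higher, and of 7 paired-like genes 4 were lower and none was higher. The lower share was 54.5% for TALE and 57.1% for paired-like genes, beside 24.1% of all genes tested. The 12 NK-like genes gave 3 lower (25%) and 1 higher (8.33%), and the 4 PAX genes gave none lower and 1 higher (25%). Over all genes tested 23.3% were higher, so the lower share of NK-like and the higher share of PAX genes lay near those of all genes. The medians were -0.24 for TALE, -0.60 for paired-like, 0.23 for NK-like and 0.25 for PAX genes on the log2 scale.

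Prrx1 and Prrx2 encode paired-related factors of limb and facial mesenchyme and, per length of exon, had the highest Rnf40+/+ means of the genes for which a length could be given, with 828 and 849.5 normalized counts per kilobase in Rnf40+/+. Prrx1 (chr1:165175247-165243841 in mm9, minus strand) was read at 9446, 9738 and 8313 normalized counts in Rnf40+/+ and at 5647, 5645 and 5476 in Rnf40-/-. The genotypes lay well apart, and the log2 change was -0.71 (SE 0.07, adjusted p = 7.63e-06 by limma). Prrx2 (chr2:30690492-30736761, plus strand) went from 1656, 1768 and 1548 to 1083, 1127 and 1205, a log2 change of -0.54 (SE 0.07, adjusted p = 0.000102 by limma). Both fell, and the ratio of Prrx2 to Prrx1 moved by little, though without overlap, from 0.175, 0.182 and 0.186 to 0.192, 0.2 and 0.22.

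Alx1, a factor of the frontonasal mesenchyme, was read at 135, 128 and 129 normalized counts in Rnf40+/+ and at 84.6, 71 and 88.8 in Rnf40-/-, with no overlap and a log2 change of -0.68 (adjusted p = 0.0039, limma). Its relative Alx4 was 357, 405 and 303 against 326, 339 and 296, and the genotypes overlapped.

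Pitx1, the hindlimb factor, had 288, 185 and 142 in Rnf40+/+ and 263, 247 and 316 in Rnf40-/-, and Rnf40+/+ replicate 1 lay within the Rnf40-/- range. Its log2 change of 0.48 did not pass the test with that library (adjusted p = 0.0804, limma), and was 0.755 without it (adjusted p = 0.00152, limma). Without Rnf40+/+ replicate 3 it was 0.249 (adjusted p = 0.259, limma).

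**Figure D2:**
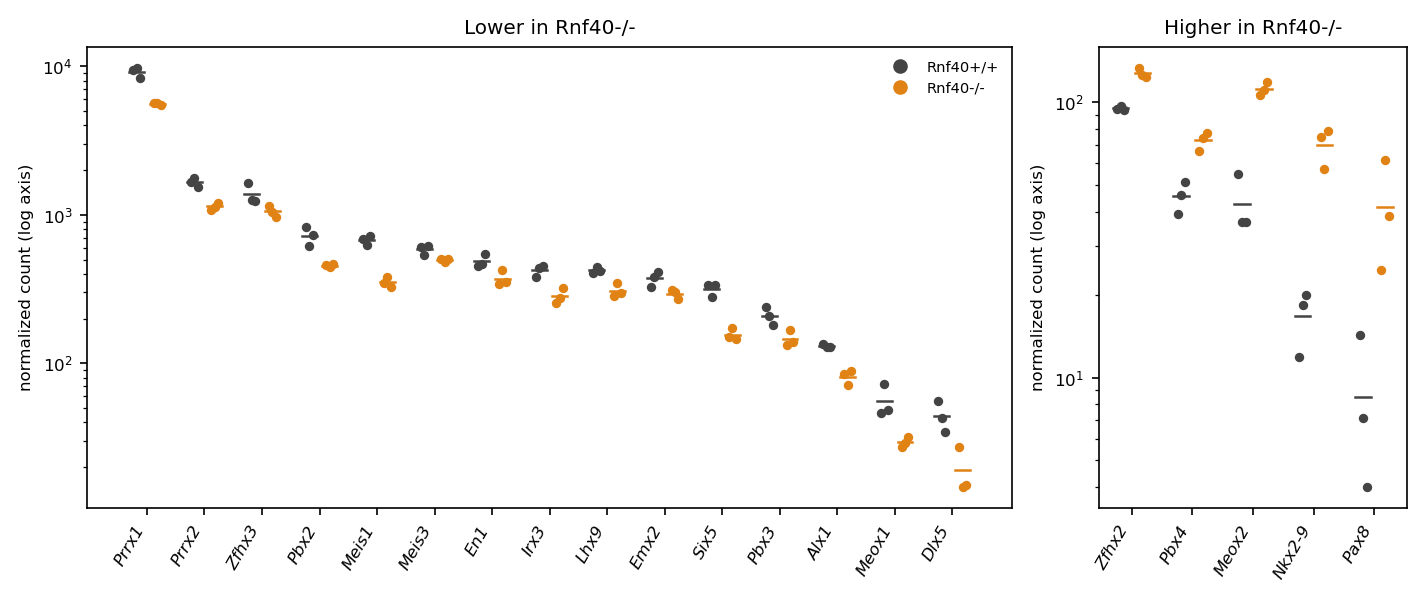
Normalized counts (y axis, log scale) in each of the 6 libraries for 15 of the 18 genes called lower and the 5 called higher, with points for libraries and bars for the mean of each genotype. Prrx1 lies at 5476 or above in every library, and the 5 higher genes lie under 100 in every Rnf40+/+ library.

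Among the TALE genes the PBX family, HOX cofactors, held both lower and higher members. Pbx2 fell from 829, 617 and 726 to 459.9, 443 and 464, a log2 change of -0.66 (adjusted p = 0.000307, limma). Its annotation shares 6.24% of its exon bases with Gpsm3 on the same strand, so a part of its reads is uncertain. Pbx3 was at 241, 207 and 180.5 against 133, 168 and 139, a log2 change of -0.51 (adjusted p = 0.0144, limma). That call was lost on leaving out Rnf40+/+ replicate 1 (adjusted p = 0.0516, limma), Rnf40-/- replicate 1 (0.062) or Rnf40-/- replicate 3 (0.0511).

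Pbx4 moved the other way. It was read at 39.4, 45.9 and 51.1 normalized counts in Rnf40+/+ and at 66.3, 74.1 and 77.4 in Rnf40-/-, a log2 change of 0.67 without overlap (adjusted p = 0.0174, limma). Without Rnf40-/- replicate 2 or 3 the adjusted p rose to 0.0545 and 0.0641 (limma). Per kilobase of exon Pbx4 stayed far below Pbx2, at 15.4 and 24.6 against 199 and 125 normalized counts in Rnf40+/+ and Rnf40-/-.

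The MEIS genes, whose products pair with PBX and HOX proteins, did not move as a group either. Meis1 (chr11:18780433-18918961, minus strand) fell from 689, 630.2 and 717 to 347, 379.9 and 327 normalized counts, to 51.7% of the Rnf40+/+ mean, with a log2 change of -0.95 (SE 0.09, adjusted p = 7.26e-06, limma). An antisense gene, Gm16140, covers 12.1% of its exon bases. Meis2 hardly differed, at 978, 927 and 903 against 913, 914 and 908, a log2 difference of -0.04 with a 95% interval of -0.19 to 0.12. Meis3 was lower by a small margin, 607, 539 and 616 against 504, 481 and 504 (log2 change -0.24, adjusted p = 0.0371, limma). It failed the threshold in DESeq2 and on leaving out any library but Rnf40+/+ replicate 2, with adjusted p from 0.0704 to 0.112. The ratio of Meis2 to Meis1 was 1.42, 1.47 and 1.26 in Rnf40+/+ and 2.63, 2.41 and 2.78 in Rnf40-/-, without overlap (two-sided exact permutation p = 0.1, the smallest that 3 against 3 samples can give). As Meis1 was itself called lower, the ratio restates that call on the same counts. The same holds for the Irx5 to Irx3 and Meox2 to Meox1 ratios below, whose denominators were called lower.

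The Iroquois genes lie in clusters of neighbours, and neighbours differed. Irx3 (chr8:94322428-94325553, minus strand), a regulator of limb and heart patterning, fell from 381, 438 and 449.6 to 256, 276 and 322 normalized counts (log2 change -0.57, adjusted p = 0.00148, limma). Irx5 in the same cluster (chr8:94881695-94885351, plus strand) had 251, 224 and 232 against 245, 326 and 306, a log2 difference of 0.30 that did not pass (95% interval 0.02 to 0.58, adjusted p = 0.072, limma). Without Rnf40-/- replicate 1 it was 0.42 (adjusted p = 0.0242, limma). Irx5 was thus at 0.658, 0.512 and 0.517 of the Irx3 count in Rnf40+/+ and at 0.956, 1.18 and 0.95 in Rnf40-/- (no overlap, exact permutation p = 0.1).

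In the other cluster, Irx1 was at 763, 1008 and 1978 normalized counts in Rnf40+/+ and at 1009, 963 and 942 in Rnf40-/-. The spread in Rnf40+/+ was larger than the difference, since replicate 3 was far above the others. Without Rnf40+/+ replicate 1 the log2 change was -0.539 (adjusted p = 0.0343, limma), from Rnf40+/+ values of 1008 and 1978, and without replicate 3 it was 0.147 (adjusted p = 0.262, limma), so its sign turned on that library. Irx2 was nearly level, at 696, 786 and 1025 against 832, 781 and 859. The ratio of Irx2 to Irx1 overlapped between genotypes.

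**Figure D3:**
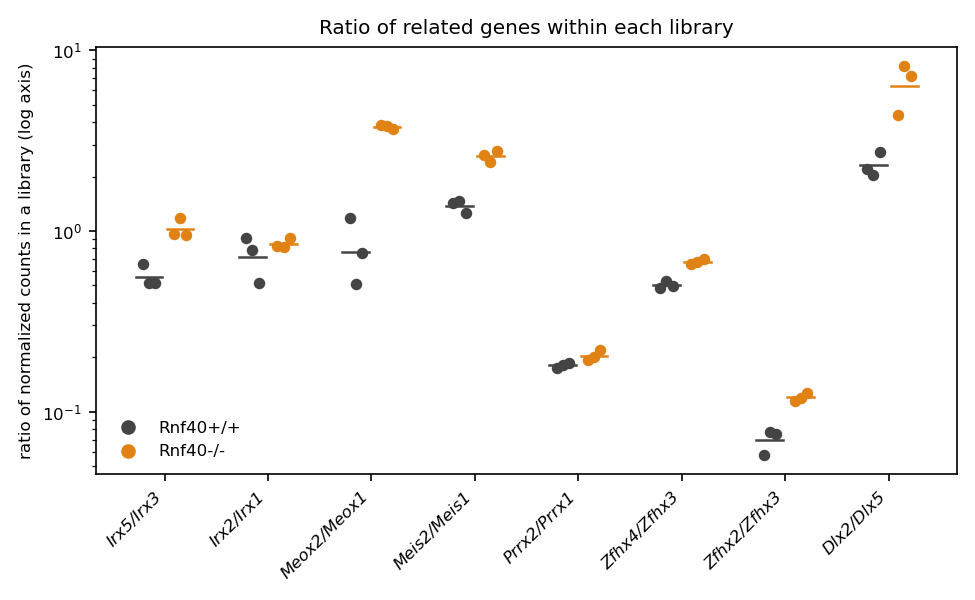
Ratio of the normalized counts of 8 pairs of related genes within each library (y axis, log scale), with points for libraries and bars for the geometric mean of each genotype. In 7 of the pairs the 3 Rnf40-/- libraries lie above all 3 Rnf40+/+ libraries, and the Irx2 to Irx1 ratio overlaps between genotypes. The pairs were chosen by hand. In the 7 pairs the denominator was a gene called lower, so the ratios restate calls made on the same counts.

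The MEOX genes, which act in somites and their derivatives, changed in opposite directions. Meox1 (chr11:101738824-101755688, minus strand) fell from 46.6, 72.4 and 48.7 to 27.5, 29.2 and 32.1 normalized counts, a log2 change of -0.87 (SE 0.25, adjusted p = 0.0136, limma). Leaving out Rnf40+/+ replicate 2, its highest library, gave -0.67 and ended the call (adjusted p = 0.0657, limma). Meox2 (chr12:37835127-37908372, plus strand) rose from 54.9, 36.7 and 36.7 to 106, 111 and 118, a log2 change of 1.39 (SE 0.21, adjusted p = 0.000198, limma). The ratio of Meox2 to Meox1 counts was 1.18, 0.507 and 0.754 in Rnf40+/+. In Rnf40-/- it was 3.85, 3.79 and 3.68, with no overlap (exact permutation p = 0.1).

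Nkx2-9 and Pax8 were the other genes with a large rise. Nkx2-9 (chr12:57712376-57714271, minus strand), a factor of the ventral neural tube, was read at 11.9, 18.4 and 20 normalized counts in Rnf40+/+ and at 74.4, 57.4 and 78.4 in Rnf40-/-. The log2 change was 2.02 (SE 0.28, adjusted p = 0.000105, limma). Its neighbours on the chromosome, Nkx2-1 and Pax9, were at 16.7, 19.4 and 23.2 against 23.5, 15.7 and 18.9 and at 51.4, 60.2 and 47.1 against 80.6, 66.8 and 59.5. Neither passed the test, with log2 differences of -0.04 (95% interval -0.75 to 0.67) and 0.37 (95% interval -0.08 to 0.83).

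Pax8 (chr2:24276071-24331119, minus strand), required for thyroid and kidney development, went from 14.3, 7.14 and 3.99 normalized counts to 24.5, 61.6 and 38.7, a log2 change of 2.22 (SE 0.47, adjusted p = 0.00211, limma). The libraries varied widely within each genotype but did not overlap. In reads, Pax8 had 12, 7 and 5 in Rnf40+/+ and 24, 59 and 41 in Rnf40-/-. The filter on low values thus kept it through the Rnf40-/- libraries, where it was high, and the test is not independent of that. The remaining PAX genes tested, Pax1 of the sclerotome, Pax3 of the neural crest and dermomyotome, and Pax9, did not pass. Pax1 was at 62.1, 67.3 and 67.9 against 76.5, 60.5 and 80.3, and Pax3 at 28.7, 27.5 and 50.3 against 27.5, 35.5 and 29.3. The endothelial markers higher in the same libraries were Pecam1, Cdh5 and Kdr, while Emcn was lower and Tek did not pass. Like Pax8, Pecam1 and Cdh5 were kept by the filter through the Rnf40-/- libraries. The summed endothelial list was 146 to 282 normalized counts in Rnf40+/+ and 234 to 333 in Rnf40-/-. The part of such cells in these rises was not tested, and fewer or more cells of a type and less or more RNA per cell cannot be told apart in bulk samples.

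Six5 and Dlx5 had the largest falls of the genes tested. Six5 (chr7:19679893-19683694, plus strand), the SINE-class gene beside the myotonic dystrophy kinase gene, had 336, 278 and 335 normalized counts in Rnf40+/+ and 151, 173 and 145 in Rnf40-/-. This was 49.5% of the Rnf40+/+ mean and a log2 change of -1.01 (SE 0.13, adjusted p = 5e-05, limma). Six4, which acts with EYA proteins, was at 211, 197 and 177 against 196, 206 and 220.0 and did not pass.

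Dlx5 (chr6:6827805-6832085, minus strand), a regulator of bone and facial development, fell from 56.1, 42.8 and 34.3 to 27.5, 14.6 and 15.1 normalized counts, a log2 change of -1.21 (SE 0.33, adjusted p = 0.00916, limma). Its neighbour Dlx6 was too low to be tested, with 7, 12 and 7 reads in Rnf40+/+ and 5, 0 and 4 in Rnf40-/-. Dlx2 did not follow, at 124, 87.7 and 94.2 against 121, 119 and 109. Dlx1 was 56.1, 18.4 and 13.6 against 36.7, 35.5 and 29.3, with Rnf40+/+ replicate 1 above every other library. Without that library Dlx1 was 1.05 higher on the log2 scale (adjusted p = 0.0186, limma), and with it the log2 difference was 0.46 (95% interval -0.50 to 1.41). Without Rnf40+/+ replicate 2 or 3 the difference was 0.264 or 0.0598 and did not pass.

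The remaining lower genes changed by less. En1, a patterning gene of midbrain, limb and dermis, fell from 454, 466 and 545 to 339.5, 425 and 351 normalized counts (log2 change -0.39, adjusted p = 0.0126, limma). The call ended without Rnf40-/- replicate 1 (0.0626) or 3 (0.0512). Emx2, needed for the cortex and the urogenital tract, fell from 327, 380.4 and 411 to 311, 304 and 270.0 (log2 change -0.33, adjusted p = 0.0296, limma), and lost the call in 4 of the 6 fits with 1 library left out, those without Rnf40+/+ replicate 2 or 3 or Rnf40-/- replicate 2 or 3 (adjusted p 0.0571 to 0.112). Lhx9, a LIM-homeodomain factor of gonad and limb, fell from 405, 445 and 420.0 to 282, 345 and 296 (log2 change -0.46, adjusted p = 0.00334, limma).

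Of the zinc finger homeobox genes, Zfhx3 fell from 1638, 1257 and 1241 to 1152, 1050 and 966 normalized counts (log2 change -0.38, adjusted p = 0.0127, limma), a call lost without Rnf40-/- replicate 3 (0.0619). Zfhx2 was at 94.3, 96.9 and 93.4 against 133, 125 and 123, a log2 change of 0.41 (adjusted p = 0.034, limma). Its call was the least stable of the 5 rises, since leaving out any 1 library, testing with DESeq2 or keeping the low genes gave adjusted p from 0.0522 to 0.114. Zfhx4 (694 ± 91.7 against 711 ± 38.7), Tshz1 (727 ± 71.7 against 664 ± 42.6), Tshz2 (222 ± 25.9 against 241 ± 20.4) and Tshz3 (363 ± 19.7 against 338 ± 12.2) did not pass, with log2 differences between -0.13 and 0.12 for these 4 genes. In Tshz2, 66.7% of the exon bases are also covered by an annotated antisense gene.

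Further genes tested and not called were less well determined. Msx2 was at 422, 436 and 272 normalized counts against 384, 377 and 467, and Lhx6, a factor of interneurons and oral mesenchyme, at 75.2, 54 and 54.3 against 63.2, 64.7 and 72.7. Barx1 had 65.7, 46.9 and 44.7 against 67.3, 65.7 and 63.3. Nkx6-2 was higher in each Rnf40-/- library, at 69.3, 58.4 and 61.4 against 47.8, 36.7 and 48.7, yet missed the threshold (log2 difference 0.50, adjusted p = 0.0726, limma), and 12.9% of its exon bases overlap Inpp5a on the other strand. Six2, Six3, Msx1, Lhx8 and Nkx6-1, with 10 to 38.9 normalized counts on average in Rnf40-/-, had 95% intervals wider than 1.5 on the log2 scale, so even sizeable changes could not be told from none in them.

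Of the 31 genes not tested, 7 had no read in any library (Emx1, Irx4, Lhx3, Nkx2-2as, Nkx2-4, Nkx2-6 and Pax5). The other 24, with 1 to 77 reads each over the 6 libraries, included Barx2, Dlx3, Dlx4, Dlx6, En2, Irx6, Lhx1, Lhx2, Lhx4, Lhx5, Msx3, Nkx1-2, Nkx2-2, Nkx2-3, Nkx2-5, Nkx3-2, Nkx6-3, Pax2, Pax4, Pax6, Pax7, Pitx3 and Six6. The mean was higher in Rnf40-/- for 19 of these 24 genes, or 79.2%, beside 57.9% of the 6167 untested genes of the whole table that had a read. In 7 of them the reads came from Rnf40-/- libraries only, and in 1 (Nkx2-2) from Rnf40+/+ libraries only, or 29.2% and 4.17%, beside 19.7% and 10.5% of the 6167 genes. These genes summed to 182 reads in Rnf40+/+ and 254 in Rnf40-/-, and without Pax6 to 118 and 241, out of 64178677 and 57352714 reads. All untested genes of the table summed to 52433 and 55925 reads.

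En2 and Lhx4 stood out among them, and were singled out after their values were seen. En2, the relative of En1, had 0, 0 and 1 reads in Rnf40+/+ and 9, 13 and 8 in Rnf40-/-. Lhx4, a pituitary and motor neuron factor, had 1, 1 and 0 reads against 9, 8 and 4. With no filter on low values both passed (adjusted p = 0.000475 and 0.00748, limma), as did Dlx3 (1, 1 and 7 reads against 8, 7 and 10, adjusted p = 0.0429, limma), in a fit that called 17.7% of all genes higher. Dlx4 had 2, 1 and 4 reads against 11, 10 and 4 and did not pass (0.0503). Pax6, the eye and forebrain gene, had 62, 0 and 2 reads in Rnf40+/+ and 2, 4 and 7 in Rnf40-/-, so nearly all its reads came from Rnf40+/+ replicate 1.

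**Figure D4:**
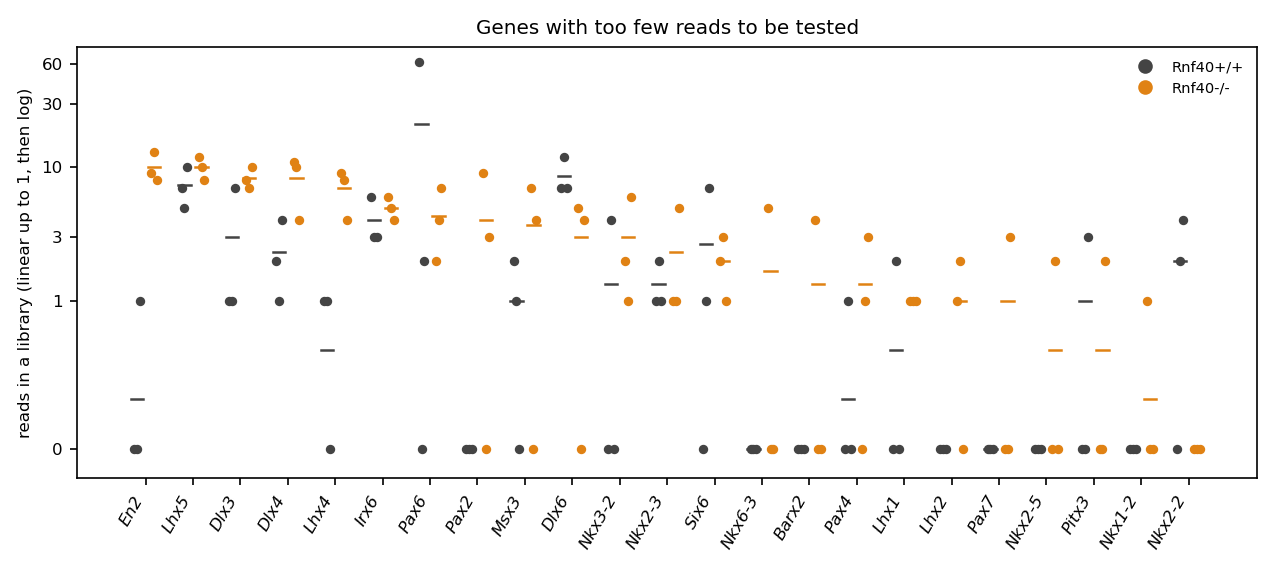
Reads in each library (y axis, linear up to 1 and log above) for 23 of the 24 genes with reads that were too low to be tested, with points for libraries and bars for the mean of each genotype. En2 has 0 to 1 reads in Rnf40+/+ and 8 to 13 in Rnf40-/-, and the single high point for Pax6, 62 reads, is Rnf40+/+ replicate 1.

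The study's gene lists divided these genes. The copies of the lists used here were incomplete, so a gene not found on a list may still belong to it. Its list of EZH2 target genes holds 44 of the 81, with a median Rnf40+/+ level of 4.87 normalized counts, against 222 for the other 37. Of the 19 target genes tested 1 was higher (Nkx2-9), 3 were lower (Alx1, Emx2 and En1) and the median log2 change was -0.04, beside 22% higher, 16.5% lower and a median of 0.08 over the 364 genes of the whole list that were tested. Of the 31 tested outside the list, 4 were higher (12.9%) and 15 lower (48.4%), beside 23.3% and 24.1% of all genes tested. Meox2 and Pax8 were not found on the list, while 25 of the 31 untested genes were. Ezh2 itself fell from 506, 367 and 371 to 184, 189 and 174 normalized counts (log2 change -1.17, adjusted p = 2.35e-05, limma). The other Polycomb genes looked at did not fall. Ezh1 was higher by 0.45 on the log2 scale (adjusted p = 0.00509, limma) and Suz12 by 0.27 (adjusted p = 0.0136, limma), and Eed did not pass.

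The study's list of genes with broad H3K4me3 domains, made from its own H3K4me3 profiles in MEFs, holds 18 of the 81 genes, and the 18 were tested. None was higher and 9 were lower, with a median log2 change of -0.36, beside 18.4% higher, 42.3% lower and a median of -0.17 over the 795 genes of that list tested. They included Emx2, En1, Lhx9, Meis1, Prrx1, Six5 and Zfhx3. Outside the list 5 of 32 were higher (15.6%) and 9 lower (28.1%), with a median of 0.12. Over all genes tested 23.3% were higher and 24.1% lower. None of these genes was found on the list of sharp domains. The list of genes with decreased H3K27me3, which the study made on cells of the same genotypes and is therefore not independent, holds 5, of which Emx2, En1, Irx3 and Prrx2 were lower and Irx5 did not pass. This is 80% lower beside 24.1% of all genes tested, but over 5 genes only. The share over the whole of that list was not taken.

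Promoter windows give a view of the same genes that the expression values did not choose. RefSeq windows of 300 bases, from 250 before to 50 after the start in GRCm38.p6, were at hand for 54 of the 81 genes. CG dinucleotides, which cluster in CpG islands, numbered 20 in the median window of these genes, 20 in that of all tested genes and 7 in that of all 27025 windows. The 11 windows of lower genes held 6 to 29 CGs with a median of 21, and the 5 of higher genes 7 to 20 with a median of 15, so the ranges overlapped. The TATA motif TATAAA, on either strand, was in 1 of the 5 higher and none of the 11 lower windows, beside 7.47% of windows of tested genes. The homeodomain core motif TAATTA, which reads the same on both strands, was in none of the 5 higher and 2 of the 11 lower windows, beside 2.6% of windows of tested genes.

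The windows of the 3 genes with the largest rise, of Six5 and Meis1 with large falls and of the abundant Prrx1 are shown to compare their CG content, written 5′ to 3′ on the strand of the gene, with every CG in capitals.
Pax8 (chr2:24475550-24475849, strand -): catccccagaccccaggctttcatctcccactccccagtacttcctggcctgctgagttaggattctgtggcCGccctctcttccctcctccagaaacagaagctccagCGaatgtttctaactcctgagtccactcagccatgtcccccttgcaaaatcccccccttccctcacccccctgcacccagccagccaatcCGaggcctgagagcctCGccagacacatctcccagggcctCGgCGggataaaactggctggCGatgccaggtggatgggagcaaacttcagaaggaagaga
Nkx2-9 (chr12:56613235-56613534, strand -): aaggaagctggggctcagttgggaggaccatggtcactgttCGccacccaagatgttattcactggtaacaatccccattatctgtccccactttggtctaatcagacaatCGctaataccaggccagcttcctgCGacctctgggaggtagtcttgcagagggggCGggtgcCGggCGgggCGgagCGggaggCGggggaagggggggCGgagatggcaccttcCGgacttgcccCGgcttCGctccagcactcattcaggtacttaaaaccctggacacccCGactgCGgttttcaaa
Meox2 (chr12:37108290-37108589, strand +): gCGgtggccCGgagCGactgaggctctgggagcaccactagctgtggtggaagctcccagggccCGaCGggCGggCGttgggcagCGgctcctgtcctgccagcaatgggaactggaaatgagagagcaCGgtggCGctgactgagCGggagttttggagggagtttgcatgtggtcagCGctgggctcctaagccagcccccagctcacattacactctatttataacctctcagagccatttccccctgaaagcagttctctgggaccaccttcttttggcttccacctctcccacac
Six5 (chr7:19094294-19094593, strand +): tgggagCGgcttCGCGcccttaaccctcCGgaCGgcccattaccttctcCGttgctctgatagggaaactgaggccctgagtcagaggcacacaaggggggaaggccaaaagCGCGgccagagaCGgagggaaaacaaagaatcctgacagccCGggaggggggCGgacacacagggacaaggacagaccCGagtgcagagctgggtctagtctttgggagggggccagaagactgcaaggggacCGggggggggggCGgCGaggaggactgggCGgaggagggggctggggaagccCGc
Meis1 (chr11:19018920-19019219, strand -): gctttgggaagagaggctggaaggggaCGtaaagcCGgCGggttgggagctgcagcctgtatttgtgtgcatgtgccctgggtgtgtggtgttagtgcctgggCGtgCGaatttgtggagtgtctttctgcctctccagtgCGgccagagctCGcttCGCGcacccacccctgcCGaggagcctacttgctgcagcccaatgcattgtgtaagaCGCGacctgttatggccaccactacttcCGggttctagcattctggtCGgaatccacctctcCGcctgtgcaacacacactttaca
Prrx1 (chr1:163313601-163313900, strand -): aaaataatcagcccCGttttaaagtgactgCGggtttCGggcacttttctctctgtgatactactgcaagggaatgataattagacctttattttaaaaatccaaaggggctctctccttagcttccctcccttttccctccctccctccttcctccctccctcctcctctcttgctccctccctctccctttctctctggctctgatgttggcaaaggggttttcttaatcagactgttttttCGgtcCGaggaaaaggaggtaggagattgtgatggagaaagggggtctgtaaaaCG
Pax8 and Prrx1 are the poorest in CG of the 6, with 7 and 6, where Pax8 was low in Rnf40+/+ cells and Prrx1 high. Meox2 has 12, Nkx2-9 and Meis1 have 15 each, and Six5 has 17. The numbers of CGs in genes that rose and genes that fell are interleaved in these windows.

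Among partner proteins of these factors, 7 of 27 genes tested were higher and 9 lower, with a median log2 change of 0.09. This is 25.9% higher and 33.3% lower, beside 23.3% and 24.1% of all genes tested. Ldb2, a LIM-domain binding adaptor, fell from 222, 124 and 179.7 to 42.8, 30.3 and 40.6 normalized counts (log2 change -2.16, adjusted p = 1.5e-05, limma), and Lmo4, which competes for the same adaptors, fell by 0.80 on the log2 scale. Ssbp2, Ssbp3 and Ssbp4, also LIM-homeodomain partners, were higher by 0.39, 0.35 and 0.27. Rlim was lower by 0.29, and Ldb1, Lmo1 and Lmo2 did not pass. The Groucho family genes Tle1, Tle2, Tle3 and Aes were lower, by 0.43 for Tle1 and by 0.78 for Tle2, whereas Tle4 did not pass (log2 difference -0.18, adjusted p = 0.289, limma). The MEIS-related PBX partners Pknox1 and Pknox2 were higher, the first from 394, 475 and 417 to 566, 551 and 594 (log2 change 0.41, adjusted p = 0.00333, limma), where Meis1, Pbx2 and Pbx3 were lower. Dach1, which works with EYA and SINE-class proteins, rose from 53.7, 48.9 and 37.5 to 89.7, 112 and 81.2 (log2 change 1.00, adjusted p = 0.00232, limma).

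A list of further homeobox genes, chosen by hand and not complete, was taken outside both the HOX clusters and the families named. It leaves out the Pknox genes, which are counted with the partners above. Its genes gave 4 higher and 5 lower of 20 tested, with a median log2 change of -0.19. These shares, 20% and 25%, were close to the 23.3% and 24.1% of all genes tested. The higher genes were Cux1, Isl1, Onecut2 and Nanog, the pluripotency factor, which went from 29.9, 32.6 and 43.9 to 91.8, 105 and 103 normalized counts (log2 change 1.49, adjusted p = 0.000135, limma). Isl1 had 3, 7 and 5 reads in Rnf40+/+ and 11, 13 and 24 in Rnf40-/-. The filter on low values kept Isl1 through the Rnf40-/- libraries, where it was high, so its test is not independent of that. Reads of Nanog can be shared with its pseudogenes and its level is uncertain for that reason. The lower ones included Adnp, Hlx, Satb1 and Vax2, of which the chromatin organizer Satb1 fell by 0.80 on the log2 scale.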

How the data were processed

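The authors sequenced strand-specific mRNA libraries, mapped the reads to the mm9 transcriptome (the submitters' processing notes name Bowtie2 2.1.0 and DESeq 1.14.0) and deposited counts divided by DESeq size factors, a signal per gene and library. The counting tool is not given in the sources used here. Dividing by the smallest value of each column gave whole reads for 100% of values (tolerance 0.01 reads).

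Log2(deposited value + 1) was fitted with limma 3.58.1 (trend, genotype only, R 4.3.3) for the 16378 genes kept by filterByExpr, with Benjamini-Hochberg adjustment at 0.05. Fold changes of low genes are understated on this scale. edgeR 4.0.16 on the recovered reads called 3857 genes higher and 3940 lower. The fits were tested on simulated data. A library's 3-read floor was 2.4 to 3.58 normalized counts, and p-values cover sampling and sample spread only. Members and gene lists were chosen with earlier results of these data known. Named were all called members, tested members with a mean above 15, and the untested by name, with exceptions stated, except a few genes that are counted but not reported here. Coordinates and exon lengths are from GENCODE vM1 (mm9), where Alx1 had 2 loci and got none. Promoters are RefSeq windows. Scaling, filters, pseudocounts, DESeq2 1.42.0, a replicate block and left-out libraries were the alternatives.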

Additional observations from a re-analysis of the deposited data

How the results depend on the processing

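Scaling by TMM, DESeq2 size factors or upper quartile, a mean above 15, pseudocounts of 0.1 and 10 and edgeR called the same 5 higher and 18 lower genes. DESeq2 called 4 and 17, no filter 7 and 18, and at least 10 reads in every library, which left out Pax8, 4 and 18. Leaving out 1 library gave 3 to 6 higher and 13 to 16 lower calls (lowest without Rnf40-/- replicate 2 or 3, and without Rnf40-/- replicate 3), with 1 to 3 genes lower by the study's criteria, and a pseudocount of 10 gave 0. The median log2 change was -0.11 and became 0.13 with no filter on low values, where 24 nearly silent genes were added, and -0.15 to -0.057 with 1 library left out. No called gene changed direction. Among genes not called, the log2 change took the other sign without Rnf40+/+ replicate 3 in 7, and its range over fits with 1 library left out was -0.539 to 0.147 for Irx1, -0.124 to 0.154 for Irx2, -0.0736 to 0.268 for Msx2, -0.178 to 0.0992 for Nkx2-1, -0.305 to 0.119 for Pax3, -0.206 to 0.755 for Six2 and -0.0361 to 0.145 for Zfhx4. Irx2 was 0.00202 with TMM scaling. Samples with the same number did not deviate together (correlations 0.0118, 0.0174 and 0.0212), so the numbers were not taken as pairs. With the replicate block 5 genes were higher and 18 lower, Zfhx2 missed the threshold (adjusted p = 0.0549, limma) and Pitx1 passed it (0.0327). With few or no reads, 31 of the 81 genes were not tested.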
